A study of Mus musculus with 3 samples.

Results

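The cells described here are the cycling, Dlx positive interneuron progenitors of the mouse dorsal cortex at postnatal day 2. A barcode was kept with at least 1000 detected genes and under 10% of its UMIs (unique molecular identifiers, 1 per counted RNA molecule) in mitochondrial genes. A kept cell belonged to the set when it held at least 1 UMI of at least 3 of the 7 genes Dlx1, Dlx2, Dlx5, Dlx6os1, Sp8, Sp9 and Gad2, no UMI of Lhx6, and at least 1 UMI of Mki67 or Top2a. The rule found 358 cells among 36295 kept cells, out of 38239 barcodes in all. The cells were chosen by the measured UMIs of these 10 genes, whose levels are given below only as a description of what was chosen.

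The series holds 3 droplet libraries of single cells, 1 for each of 3 genotypes. The Emx1-Cre library came from Emx1-Cre; MAP2k1/2-dcko pups, the hGFAP-Cre library from hGFAP-Cre; MAP2k1/2-dcko pups, and the control library from pups with floxed Map2k1 and Map2k2 that the labels call WT and give no Cre. Emx1-Cre acts in cortical progenitors from early neurogenesis on and hGFAP-Cre in radial glia later in gestation, and all 3 groups carried the floxed genes of the kinases MEK1 and MEK2, which activate ERK. Per the labels' protocols, every group received the dye FlashTag in the lateral ventricle at embryonic day 18, and tdTomato positive cells of the dorsal cortex were sorted at postnatal day 2, with the tdTomato driver and the number of pups not given in the sources used here. Each genotype is a single library without a replicate. No difference between genotypes could be tested, and every 95% interval below covers counting error only.

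Dlx1, Dlx2, Dlx5 and Dlx6 encode homeodomain transcription factors that direct GABAergic interneuron fate, and Sp8 and Sp9 are zinc finger factors needed for interneurons of the olfactory bulb. Around birth, progenitors of the cortical ventricular and subventricular zones begin to make olfactory bulb interneurons beside astrocytes and oligodendrocytes, and while such progenitors divide they express Gsx2 and Egfr ahead of the Dlx genes. MEK and ERK relay growth factor signals to targets such as the Etv factors, the Sprouty inhibitors and cyclin D genes. Lhx6, which the rule required to be at 0, marks interneurons from the medial ganglionic eminence.

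The cells of the set were deeper than the average kept cell. Their median was 10662 UMIs in the Emx1-Cre, 10159 in the hGFAP-Cre and 11494 in the control library, against 5306, 5583 and 6533 UMIs over all kept cells of the same libraries. Their summed UMIs, to which every CPM value below is scaled (the UMIs of a gene over those of all genes in the same cells), were 193738 in the 17 Emx1-Cre cells, 1321668 in the 119 hGFAP-Cre cells and 2714619 in the 222 control cells. The lowest barcode held 2644 UMIs in the Emx1-Cre, 3065 in the hGFAP-Cre and 500 in the control library. Between 43 and 54 barcodes were shared by any pair of libraries, and 1 barcode of the set occurred in both the hGFAP-Cre and the control library. Xist was at 0 UMIs in the set's Emx1-Cre and hGFAP-Cre cells and at 1747 CPM in its control cells, so sex and genotype cannot be told apart between these libraries.

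Cycling Dlx positive cells were scarcest in the Emx1-Cre library and most frequent in the control. They made up 0.129% of kept cells in the Emx1-Cre library (95% Clopper-Pearson interval 0.0750% to 0.206%, 17 of 13199), 0.906% in the hGFAP-Cre library (0.751% to 1.08%, 119 of 13135) and 2.23% in the control library (1.95% to 2.54%, 222 of 9961). The 3 intervals lay apart. The Emx1-Cre share was 17.3-fold lower than that of the control (10.6 to 30.2), the hGFAP-Cre share was 2.46-fold lower than that of the control (1.96 to 3.10), and the hGFAP-Cre share was 7.03-fold higher than the Emx1-Cre share (4.21 to 12.5). A share of sorted cells also moves with what else the gate took in: cycling Eomes positive cells, excitatory intermediate progenitors chosen with the same 2 cycling genes, made up 3.42% of kept cells in the Emx1-Cre, 4.77% in the hGFAP-Cre and 1.89% in the control library. The part of the sort in the shares was not tested.

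All Dlx positive cells, cycling or not, followed the same order, at 0.780% in the Emx1-Cre, 5.08% in the hGFAP-Cre and 10.2% in the control library. Among them the cycling share was 16.5% in the Emx1-Cre library (9.92% to 25.1%, 17 of 103), 17.8% in the hGFAP-Cre library (15.0% to 21.0%, 119 of 667) and 21.8% in the control library (19.3% to 24.4%, 222 of 1019). These intervals overlapped, and the log2 ratio to the control was −0.40 (−1.21 to 0.31) for Emx1-Cre and −0.29 (−0.62 to 0.04) for hGFAP-Cre. When every kept cell was thinned to 3000 UMIs, which left out 1690 Emx1-Cre, 0 hGFAP-Cre and 770 control cells, the cycling share was 4.26% (2 of 47), 11.4% (50 of 439) and 19.0% (140 of 738), with hGFAP-Cre over control at −0.74 (−1.23 to −0.26). At equal depth the cycling share of Dlx positive cells in the hGFAP-Cre library was thus below the control by more than the counting error. At the depth of the files it was not. Thinning applied the rule again to fewer UMIs. Before it, the median cycling Dlx positive cell had 6 Mki67 and Top2a UMIs in the hGFAP-Cre and 14 in the control library. The part of this difference in the thinned shares was not tested. Among Dlx positive cells with no UMI of Eomes, Neurod6, Aqp4 or Pdgfra, markers of other lineages, the sign turned: 8.93% of Emx1-Cre (5 of 56), 18.4% of hGFAP-Cre (74 of 403) and 15.9% of control cells (119 of 750) were cycling, with hGFAP-Cre over control at 0.21. No interval is given for this ratio, so a difference beyond counting error is not shown.

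**Figure D1:**
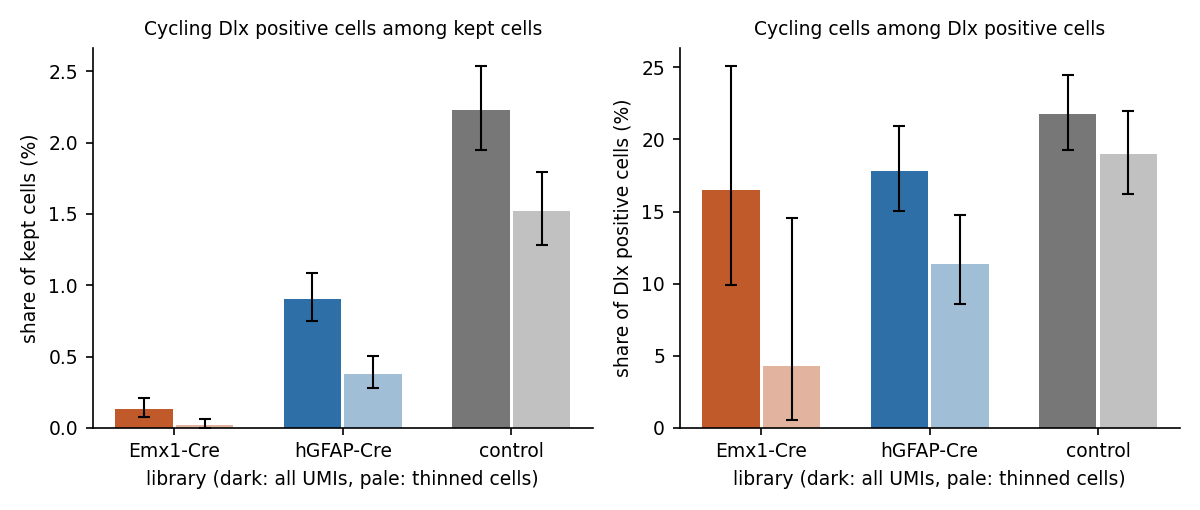
Share of cycling Dlx positive cells among all kept cells (left, %) and among Dlx positive cells (right, %) in the Emx1-Cre, hGFAP-Cre and control libraries, with exact 95% intervals. Dark bars use all UMIs and pale bars cells thinned to 3000 UMIs: on the left the 3 libraries stand apart at both depths (0.129%, 0.906% and 2.23% with all UMIs), while on the right the dark bars overlap.

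The genes of the rule themselves, given as a description and with no test, were lowest in the Emx1-Cre cells except for Sp8. Dlx1 was at 114 CPM in the Emx1-Cre cells (71.2 to 172), 281 in the hGFAP-Cre cells (254 to 312) and 577 in the control cells (549 to 607). Sp9 was at 46.5, 212 and 399 CPM, Gad2, a GABA-synthesising enzyme, at 72.3, 184 and 280 CPM, and Dlx2 at 160, 302 and 604 CPM in the same order. Dlx5 was close in hGFAP-Cre and control cells, at 158 CPM (137 to 181) and 183 CPM (167 to 200), with 72.3 CPM in Emx1-Cre cells. Dlx6os1, which lies antisense to Dlx6 and whose reads cannot be told from those of Dlx6 if strand was not used, was at 61.9, 161 and 271 CPM, and Sp8 at 82.6, 62.8 and 145 CPM. Mki67, a proliferation antigen, was at 67.1, 259 and 478 CPM and Top2a, the topoisomerase that untangles chromosomes in late cycle, at 382, 507 and 948 CPM.

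Single cells held these genes to unlike degrees. At least 6 of the 7 interneuron genes were detected in 1 of 17 Emx1-Cre cells (5.88%), 53 of 119 hGFAP-Cre cells (44.5%) and 144 of 222 control cells (64.9%), and all 7 in 0, 21 and 99 cells. Both Dlx1 and Dlx2 were found in 58.8% of Emx1-Cre, 79.8% of hGFAP-Cre and 96.4% of control cells. At the edge of the rule, 5 Emx1-Cre, 23 hGFAP-Cre and 32 control cells lay just inside with exactly 3 of the genes, and 25, 30 and 64 cycling cells lay just outside with exactly 2. The cells just outside had 55.9, 108 and 201 CPM of Dlx2. Of the cycling genes, a single UMI of Mki67 or Top2a carried 3, 26 and 43 cells, while the median cell had 4, 6 and 14 UMIs of the pair. Free RNA gave the microglia, which should lack the 7 genes, a UMI of any one of them in at most 5.76% of cells, at median depths of 5244, 7176 and 11145 UMIs.

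**Figure D2:**
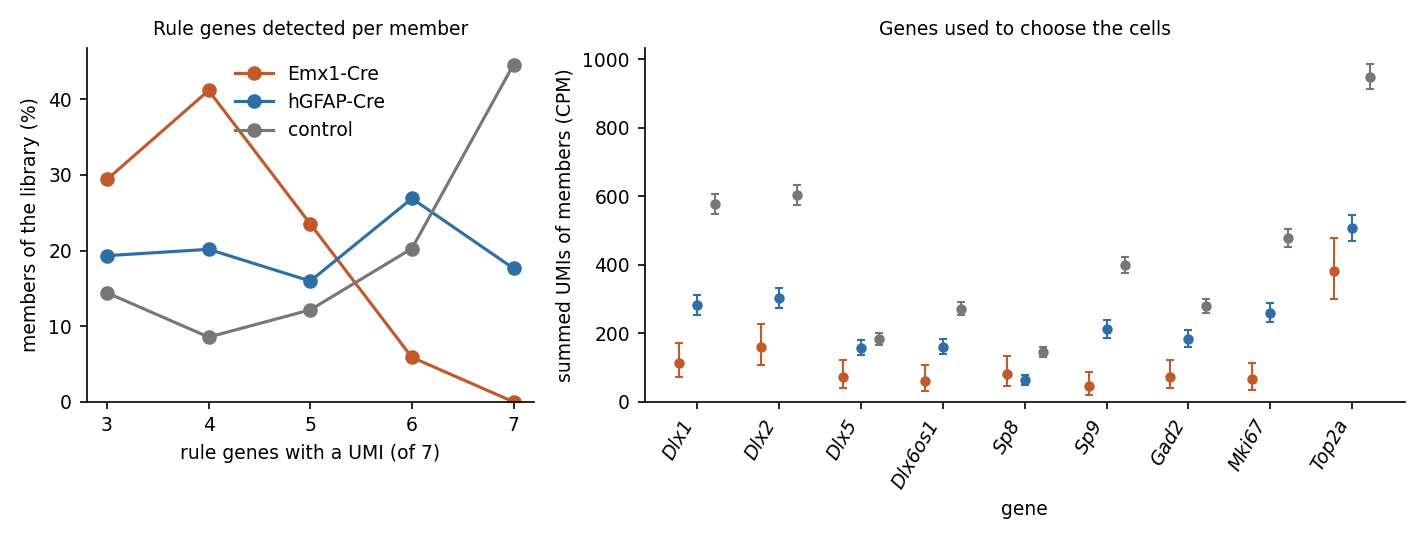
Left, the share of each library's cycling Dlx positive cells (%) with 3 to 7 of the 7 interneuron genes detected; right, summed level (CPM) of the genes used to choose the cells, with exact Poisson 95% intervals. Emx1-Cre cells peak at 4 genes and control cells at 7, and on the right the Emx1-Cre and hGFAP-Cre points lie below the control for every gene, with intervals that touch the control's for Dlx5 in hGFAP-Cre cells and for Sp8 in Emx1-Cre cells.

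Genes outside the rule checked the label. At least 3 of 17 interneuron identity genes outside the rule were found in 100% of Emx1-Cre, 98.3% of hGFAP-Cre and 99.1% of control cells. These 17 summed to 1579, 2069 and 2674 CPM in the same order, and to 1568, 1746 and 2326 CPM in cycling Eomes positive cells. By share of cells this list did not separate the libraries. Gsx2, a homeodomain factor upstream of the Dlx genes, had 1 UMI in Emx1-Cre (5.16 CPM), 70 UMIs in hGFAP-Cre and 202 UMIs in control cells (74.4 CPM). It was found in 5.88% of Emx1-Cre, 26.1% of hGFAP-Cre and 37.8% of control cells. Nkx2-1 and Lhx8, which define the medial ganglionic eminence, were at 0 UMIs in Emx1-Cre and hGFAP-Cre cells and at 1 and 3 UMIs in control cells. The 9 markers of that region summed to 114 CPM in Emx1-Cre, 125 CPM in hGFAP-Cre and 196 CPM in control cells, at least 1 was found in 58.8%, 68.1% and 77.9% of cells, and at least 3 in 2, 5 and 24 cells. The 10 markers of striatal neurons summed to 41.3, 43.9 and 39.4 CPM, at least 1 was found in 29.4%, 19.3% and 30.6% of cells and at least 3 in 0, with Drd1, Drd2 and Tac1 among those at 0 UMIs in all 3 libraries. The part of these markers in the results was not tested.

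The Emx1-Cre cells went against the label by markers of other lineages and by doublet calls. Of the 17, 12 (70.6%) had a UMI of Eomes, Neurod6, Aqp4 or Pdgfra, markers of other lineages, compared with 45 of 119 hGFAP-Cre cells (37.8%) and 103 of 222 control cells (46.4%). Scrublet, which compares cells with simulated pairs, called 7 of 17 Emx1-Cre cells doublets (41.2%), 22 of 119 hGFAP-Cre cells (18.5%) and 25 of 222 control cells (11.3%), against 7.64%, 8.71% and 4.44% of kept cells. The summed astroglia and radial glia markers were at 8351, 1943 and 2130 CPM, of which Fabp7 alone gave 6989 CPM in Emx1-Cre cells. At least 3 of these 12 markers were found in 64.7% of Emx1-Cre, 49.6% of hGFAP-Cre and 64.9% of control cells. By that share the Emx1-Cre cells were like the control cells. The 7 ependymal markers summed to 1357.5 CPM in Emx1-Cre, 748 CPM in hGFAP-Cre and 54.2 CPM in control cells, and 5, 16 and 1 cells held at least 3 of them. At least 3 of 10 excitatory neuron markers were found in 9, 18 and 35 cells. The Emx1-Cre set is therefore called below by its rule only, as the 17 cells the rule found.

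Sp8 and Sp9, both genes of the rule, were found together in 11.8% of Emx1-Cre, 33.6% of hGFAP-Cre and 60.8% of control cells, a description of how the rule was met. The Etv factors were not part of the rule: an Etv1, Etv4 or Etv5 UMI was found in 41.2% of Emx1-Cre, 44.5% (35.4% to 53.9%) of hGFAP-Cre and 71.2% (64.7% to 77.0%) of control cells, with the hGFAP-Cre and control intervals apart and no test.

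The floxed kinases gave no check of the deletion. Map2k1 was at 25.8 CPM in Emx1-Cre, 12.9 CPM in hGFAP-Cre and 13.3 CPM in control cells, and Map2k2 at 206.5, 206.6 and 180.5 CPM. The 3′ tags of these libraries need not come from the deleted exons. Prm1, a sperm protamine gene whose 3′ end is part of some Cre transgenes, was at 361 UMIs (273 CPM) in the hGFAP-Cre cells and at 0 UMIs in both other libraries, at least 247-fold higher than the control against a limit of 3 counts in that library. It was found in 59 of the 119 hGFAP-Cre cells (49.6%) and in 12.1% of the microglia of that library. Emx1, a transcription factor of the dorsal cortex, was at 46.5 CPM in Emx1-Cre, 25.7 CPM in hGFAP-Cre and 13.3 CPM in control cells.

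Across all genes, 6635 reached 20 CPM in hGFAP-Cre or control cells. Of these, 402 (6.06%) were at least 2-fold higher and 223 (3.36%) at least 2-fold lower in hGFAP-Cre cells, all with counting intervals apart, on the scale of log2(CPM + 5), which understates differences of low genes. From 1.5-fold on, the limit used for members of gene lists, 14% were higher and 13.9% lower, and the median log2 ratio was −0.03. The comparisons of hGFAP-Cre and of Emx1-Cre with the control share the control cells. In what follows a list's count is read beside these shares, and the same values are given over all list members with any UMI, since a gene can pass the 20 CPM limit through 1 library alone.

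Transcripts that follow ERK activity were lower in hGFAP-Cre cells. Of the 20 ERK response genes, 7 reached 20 CPM, 5 of these were at least 1.5-fold lower and 0 higher, with a median log2 ratio of −1.13. Over the 19 with any UMI the median was −0.62, and 10 were lower and 0 higher. Etv1, an ETS factor that ERK induces, was at 58.3 CPM (46.0 to 72.8) in hGFAP-Cre cells against 136 CPM (122 to 150) in control cells, 2.33-fold lower, and in 37.8% against 64.9% of cells (12.6% against 34.7% after thinning). Spry2, a feedback inhibitor of receptor signalling, was at 33.3 CPM (24.2 to 44.7) against 94.3 CPM (83.1 to 107), 2.83-fold lower. Ccnd1, cyclin D1, had 33 UMIs against 176 and was 2.60-fold lower, but it was not lower among cells with at least 6 of the 7 interneuron genes (log2 ratio −0.04) and was at 0.19 when the cells were chosen after thinning. Dusp6, the ERK phosphatase, was picked after its values were seen and had 2 UMIs in hGFAP-Cre cells and 51 in control cells.

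Genes induced at once by signalling or dissociation went the same way in part. Egr1, an ERK-dependent immediate early factor, was at 18.2 CPM (11.6 to 27.0) in hGFAP-Cre cells against 345 CPM (323 to 368) in control cells, 19.0-fold lower (12.7 to 29.8). It was detected in 6.72% of hGFAP-Cre cells and 75.7% of control cells, or in 5.04% and 41.1% after thinning to 3000 UMIs. Ier2 was at 44.6 against 217 CPM, and Jun at 176 against 335 CPM. Of the 20 genes of the list, 10 reached 20 CPM, 5 were lower and 1 higher, with a median of −0.60. Fos, also picked after its values were seen, was at 186 CPM (164 to 211) against 252 CPM (233 to 272).

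The ERK cascade itself differed little. Of its 21 genes, 15 reached 20 CPM, 1 was lower and 0 higher, with a median of −0.16. Mapk3, which encodes ERK1, was at 34.1 against 64.8 CPM, a log2 ratio of −0.84, and Rasa1, a RAS inhibitor, at 80.2 against 117 CPM, a log2 ratio of −0.52. Of 17 receptor tyrosine kinases, 9 reached 20 CPM, 2 were higher and 4 lower. Fgfr2 was at 33.3 CPM in hGFAP-Cre cells against 9.58 CPM in control cells and Ntrk2, the BDNF receptor, at 148 against 61.5 CPM, while Pdgfra, the receptor of oligodendrocyte precursors, was at 17.4 against 39.4 CPM.

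The clearest difference among cell cycle genes was in cyclin D2. Ccnd2, which carries cells through the first gap of the cycle, was at 906 CPM (855 to 958) in hGFAP-Cre cells against 3368 CPM (3299.7 to 3438) in control cells, 3.72-fold lower (3.50 to 3.95). The median cell had 7.43 Ccnd2 UMIs per 10000 in the hGFAP-Cre library and 34.5 in the control library, and the middle 50% of cells spanned 1.71 to 16.3 and 21.7 to 45.3, without overlap. In the 17 Emx1-Cre cells Ccnd2 was at 552 CPM (453 to 667), with 65.4% of its UMIs in 3 cells. Cdkn1c, an inhibitor of cyclin kinases, had 33 UMIs against 201 and was 2.97-fold lower.

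Cdkn1a went the other way. This inhibitor of cyclin kinases, a target of p53, was at 291 CPM (263 to 322) in hGFAP-Cre cells against 32.8 CPM (26.3 to 40.3) in control cells, 8.88-fold higher (7.04 to 11.3). It was found in 47.9% of hGFAP-Cre cells and 22.5% of control cells, or in 31.1% and 10.0% after thinning, and the 3 highest hGFAP-Cre cells held 33.0% of its UMIs. Microglia also held Cdkn1a, in 52.4% of cells at 354 CPM in the hGFAP-Cre and 42.0% at 129 CPM in the control library. The share in the hGFAP-Cre set and the levels in both sets were below those of microglia of the same library. Cdkn1a was thus higher in the hGFAP-Cre library in cells of another lineage too. Of 20 p53 and apoptosis genes, 12 reached 20 CPM, 5 were higher and 0 lower, with a median of 0.54, the same over the 20 genes with any UMI. Phlda3, a p53-induced inhibitor of AKT signalling, was at 44.6 against 6.63 CPM and Ccng1, cyclin G1, at 27.2 against 7.74 CPM. Over the whole list of 19 cyclins and inhibitors, which also holds Cdkn1a, 17 reached 20 CPM, 1 was higher and 3 lower, with a median of −0.26.

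Some genes of DNA replication and of mitosis were lower. Of 32 S phase genes, 30 reached 20 CPM in hGFAP-Cre or control cells, 10 were lower and 1 higher in hGFAP-Cre cells, with a median of −0.45. Mcm3 and Mcm5, subunits of the replicative helicase, were at 44.6 and 38.6 CPM in hGFAP-Cre cells against 122 and 113 CPM in control cells, 2.72-fold and 2.92-fold lower. Fen1, which trims Okazaki fragments, was at 49.9 against 103 CPM, with a log2 ratio of 0 when the cells were chosen after thinning. Of 45 G2/M genes, 44 reached 20 CPM, 7 were lower and 0 higher, a share near the 13.9% of all genes, with a median of −0.31. The difference between the 2 lists was not tested. Cenpe, a kinetochore motor, was at 112 against 223 CPM, Bub1, a checkpoint kinase, at 37.8 against 76.6 CPM and Ndc80, a kinetochore subunit, at 39.3 against 72.9 CPM. Mki67 and Top2a, which chose the cells, are themselves genes of late cycle and were lower in hGFAP-Cre cells, and the part of the choice in these medians was not tested.

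Promoters of both groups are shown because S phase and G2/M genes carry known cell cycle motifs, the E2F site and the CHR element. The sequences are RefSeq promoters on build GRCm38.p6, 250 bases before to 50 after the gene start, 5′ to 3′ on the gene's strand. Capitals mark TTTCCCGC or TTTGGCGC (E2F) in the Mcm3 promoter at chr1:20820263-20820562, minus strand, and the Mcm5 promoter at chr8:75109259-75109558, plus strand. They mark TTTGAA (CHR) in the Top2a promoter at chr11:99024140-99024439 and the Mki67 promoter at chr7:135716330-135716629, both on the minus strand. Each motif was searched on both strands.
Mcm3: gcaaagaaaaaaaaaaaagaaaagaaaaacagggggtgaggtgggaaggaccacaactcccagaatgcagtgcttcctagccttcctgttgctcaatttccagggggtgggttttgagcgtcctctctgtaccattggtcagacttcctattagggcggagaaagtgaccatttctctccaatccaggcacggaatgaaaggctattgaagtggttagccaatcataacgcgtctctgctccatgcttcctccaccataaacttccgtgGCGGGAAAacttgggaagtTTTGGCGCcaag
Mcm5: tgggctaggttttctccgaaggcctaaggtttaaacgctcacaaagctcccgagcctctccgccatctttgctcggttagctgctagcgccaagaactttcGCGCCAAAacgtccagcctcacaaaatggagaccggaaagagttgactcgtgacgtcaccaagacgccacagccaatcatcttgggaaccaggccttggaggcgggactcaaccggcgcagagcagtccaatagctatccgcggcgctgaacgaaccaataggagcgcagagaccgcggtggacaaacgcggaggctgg
Top2a: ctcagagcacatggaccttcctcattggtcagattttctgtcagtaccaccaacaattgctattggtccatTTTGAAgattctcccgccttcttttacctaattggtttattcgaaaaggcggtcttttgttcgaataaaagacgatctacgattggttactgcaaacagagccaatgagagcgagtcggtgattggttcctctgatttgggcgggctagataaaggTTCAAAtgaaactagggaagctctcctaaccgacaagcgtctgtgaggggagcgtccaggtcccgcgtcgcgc
Mki67: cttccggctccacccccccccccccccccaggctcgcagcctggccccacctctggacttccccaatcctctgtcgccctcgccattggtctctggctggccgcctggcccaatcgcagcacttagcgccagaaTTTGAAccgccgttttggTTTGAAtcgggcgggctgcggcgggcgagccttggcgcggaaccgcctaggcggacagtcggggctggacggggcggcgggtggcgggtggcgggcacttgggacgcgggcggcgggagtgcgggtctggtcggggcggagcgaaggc
Of the 28 promoters of 25 matched S phase genes, 9 (32.1%) held the E2F letters, against 0 of the 44 promoters of 40 matched G2/M genes and 1.56% of all 32851 promoters. The CHR letters stood in 30 of 44 G2/M promoters (68.2%), 4 of 28 S phase promoters (14.3%) and 17.9% of all promoters. The promoters of Cenpe and Bub1 held no TTTGAA in this window. These matches describe letters in the windows and not factor binding.

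Oligodendrocyte lineage factors were lower in hGFAP-Cre cells. Olig1 was at 38.6 CPM (28.7 to 50.7) in hGFAP-Cre cells against 186 CPM (170 to 203) in control cells, 4.81-fold lower, and Olig2 at 29.5 CPM (21.0 to 40.3) against 127 CPM (114 to 141), 4.29-fold lower. A UMI of either was found in 12 of 119 hGFAP-Cre cells (10.1%) and 80 of 222 control cells (36.0%), with intervals apart, and in 4 of the 17 Emx1-Cre cells. After thinning, Olig2 was found in 3.36% of hGFAP-Cre and 18.7% of control cells. In microglia the shares with an Olig1 UMI were 1.80% in the hGFAP-Cre and 6.44% in the control library. The difference was larger in cells with fewer interneuron genes: among cells with under 6 of the 7 genes the log2 ratios were −2.93 for Olig1 and −3.03 for Olig2, and among cells with at least 6 they were −1.27 and −0.61. Oligodendrocyte precursor markers as a whole summed to 107 CPM in hGFAP-Cre and 377 CPM in control cells, with Sox10 and Gpr17 among the 9 genes. The part of such precursors in the control set was not tested.

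Interneuron factors outside the rule were lower on balance. Of 26 interneuron specification factors, 18 reached 20 CPM, 3 were higher and 8 lower in hGFAP-Cre cells, with a median of −0.47. Sall3, a zinc finger factor of olfactory bulb interneurons, was at 27.2 CPM against 82.9 CPM in control cells. Meis1 and Pbx3, homeodomain partners in interneuron differentiation, were higher, at 29.5 against 8.84 CPM and at 42.4 against 14.7 CPM, though Meis1 was at a log2 ratio of −0.20 with cells chosen after thinning. Of 9 GABA genes, 5 reached 20 CPM, 2 were lower and 0 higher. Gad1 was at 18.2 against 48.3 CPM.

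Genes of migration and early neuronal differentiation were lower as a group. Of 24 such genes, 19 reached 20 CPM, 11 were lower and 0 higher, with a median of −0.69, and over the 24 with any UMI 11 were lower and 4 higher. Nrxn3, a synaptic adhesion gene, was at 134 CPM (115 to 155) in hGFAP-Cre cells against 319 CPM (298 to 341) in control cells, Dcc, the netrin receptor, had 5 UMIs against 57, and Nrp1, a semaphorin receptor, was at 10.6 against 30.6 CPM.

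The pathways named in the study's title beside ERK had small list medians, though the summed SHH genes were lower. Of 21 NOTCH genes, 11 reached 20 CPM, 2 were higher and 0 lower, with a median of 0.30. Hes1, a NOTCH effector, was at 43.9 CPM in hGFAP-Cre against 23.9 CPM in control cells, but its direction is not stable: in cells with at least 6 of the 7 genes it was at 13.1 against 22.3 CPM, a log2 ratio of −0.59. Hes6 was at 324 against 262 CPM and Notch1 at 105 against 148 CPM. Of 12 SHH genes, 5 reached 20 CPM, 2 were lower and 0 higher, with a median of −0.07. This median ranged from −1.13 to 0.33 over the alternatives. The summed UMIs of the SHH list were at a log2 ratio of −0.76 (−0.97 to −0.55), and those of the NOTCH list at 0.17 (0.07 to 0.27). The 2 lower SHH genes were the co-receptors Gas1, at 52.2 CPM (40.6 to 66.1) against 148 CPM (134 to 163), and Cdon, with 37 UMIs against 163. Ptch1, the receptor and a transcriptional target of SHH, picked after its values were seen, was at 21.9 CPM (14.7 to 31.5) against 23.2 CPM (17.8 to 29.7), and Gli1, another target, had 1 UMI against 3.

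Most pallial and radial glia transcription factors were lower in hGFAP-Cre cells. Of 17 pallial and radial glia transcription factors, 3 were higher and 10 lower, with a median of −0.61. Neurog2, a proneural factor of excitatory neurons, was at 59.0 CPM (46.6 to 73.7) in hGFAP-Cre cells against 5.53 CPM (3.09 to 9.11) in control cells, and Eomes, the marker of excitatory intermediate progenitors, at 68.9 CPM against 18.8 CPM. Eomes or Neurog2 was found in 26.9% of hGFAP-Cre cells (19.2% to 35.8%), 8.56% of control cells (5.23% to 13.0%) and 29.4% of the 17 Emx1-Cre cells. Free RNA of these genes was also higher in the hGFAP-Cre library: the share of microglia with a UMI was 9.51% against 3.05% in the control library for Eomes and 6.94% against 1.02% for Neurog2. With cells chosen after thinning, the Neurog2 log2 ratio was −0.56, the same value as for Bst2 and Ifi27 there, and that of Eomes 0.59. Among cells with at least 6 of the 7 interneuron genes, Neurog2 had 20 UMIs in hGFAP-Cre against 5 in control cells. Its log2 ratio was 2.42 in those cells and 2.40 in cells with fewer genes. The Neurog2 direction thus held in both groups of cells. Its value after thinning came from 50 hGFAP-Cre and 140 control cells of 3000 UMIs each. As 3 genes shared that value, it rests on very few UMIs and does not show a turned direction. Otx1, a cortical homeodomain factor, was at 9.84 against 34.6 CPM.

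3 further lists gave small or uneven values. Of 20 cholesterol synthesis genes, 16 reached 20 CPM, 3 were higher and 0 lower, with a median of 0.18. Idi1 was at 99.1 against 58.6 CPM and Hmgcs1 at 128 against 81.4 CPM, though Hmgcs1 turned to a log2 ratio of −1.09 with cells chosen after thinning. Of 15 interferon genes, 5 reached 20 CPM and 3 of these were higher, with a median of 2.40, but over the 14 with any UMI the median was 0.46. Bst2, Ifi27 and Ifitm3 were at 65.8, 47.7 and 40.9 CPM in hGFAP-Cre cells against 0.737, 3.68 and 3.68 CPM in control cells. They came from few cells, with Bst2 in 10.1% of hGFAP-Cre cells, and without the cells holding at least 3 ependymal markers Ifi27 was at a log2 ratio of 0.39. Bst2 turned to −0.13 when both Mki67 and Top2a were required, to −0.56 after thinning and to −0.30 in cells with at least 6 of the 7 genes, and the interferon median was −0.11 and −0.87 in the first and last of these settings, so no direction holds for the list. Of 10 markers of olfactory bulb interneuron subtypes, 3 reached 20 CPM: Calb2 was at 39.3 against 5.16 CPM, Pcp4 at 67.3 against 17.3 CPM and Synpr at 10.6 against 23.2 CPM, and the median over the 8 with any UMI was 0.03. Pcp4 turned to −1.95 after thinning, −0.63 without cells with Eomes, Neurod6, Aqp4 or Pdgfra and −0.48 without cells holding 3 ependymal or excitatory markers. Calb2 was at 0.25 in cells with at least 6 of the 7 genes, at 3.75 against 2.35 CPM.

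**Figure D3:**
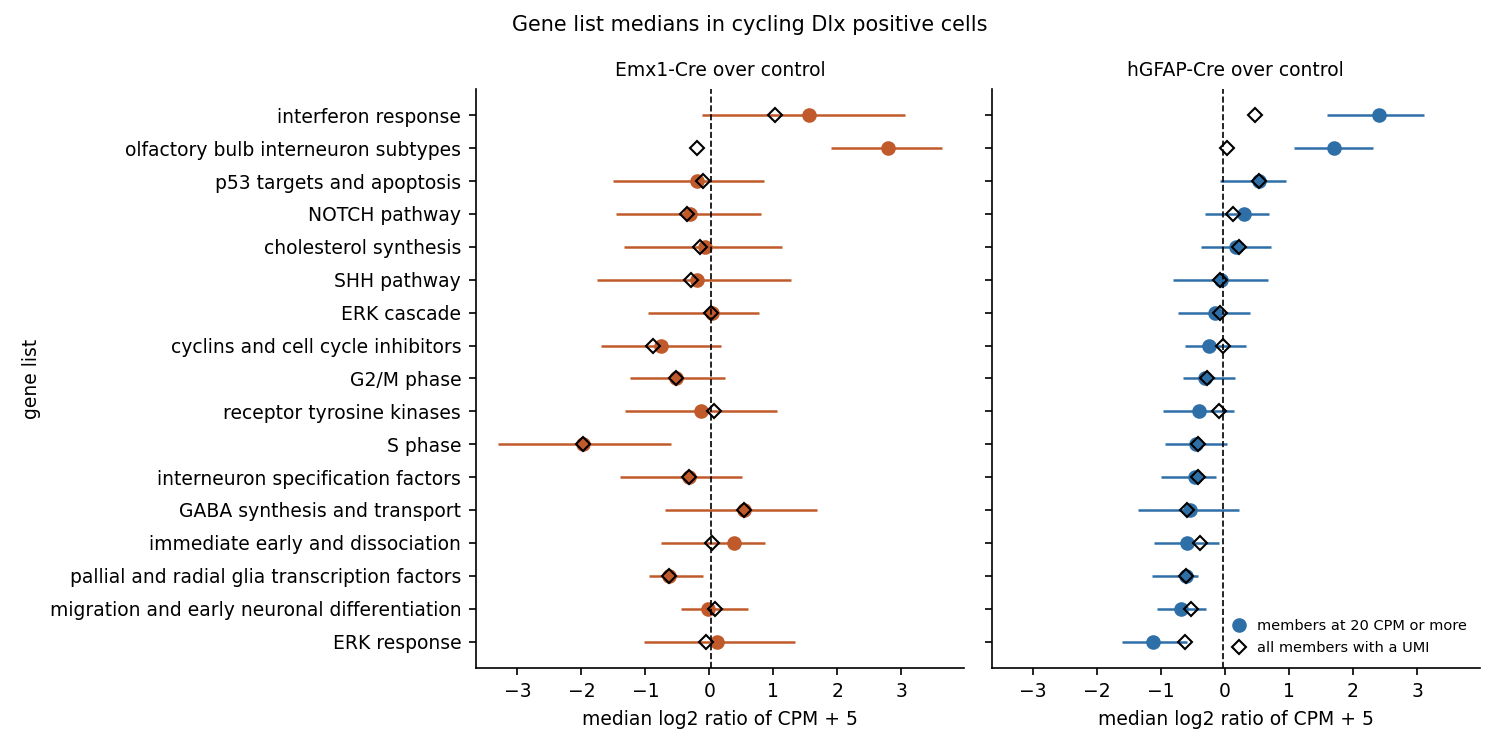
Median log2 ratio of CPM + 5 for 17 gene lists in cycling Dlx positive cells, Emx1-Cre over control (left) and hGFAP-Cre over control (right). Filled points take list members at 20 CPM or more, with lines spanning the medians of the members' lower and upper counting bounds, open diamonds take every member with a UMI, and the dashed line is the median of all genes: S phase is lowest on the left (−1.97), ERK response on the right (−1.13), and the diamonds of interferon and olfactory bulb subtype genes lie far from their filled points.

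Outside the lists, the highest genes in hGFAP-Cre cells beside Prm1 were Cryab, Dynlrb2, Mt2 and Chchd10. Mt2, a metallothionein, was at 849 CPM (800 to 900) in hGFAP-Cre cells against 69.6 CPM (60.1 to 80.3) in control cells, 12.2-fold higher, and in 77.3% against 26.1% of cells. Cryab, a small heat shock protein, was at 179 against 2.95 CPM and Chchd10, a mitochondrial protein, at 205 against 13.6 CPM. Dynlrb2, a dynein light chain of cilia and an ependymal marker, was at 238 against 15.1 CPM and came from 17.6% of hGFAP-Cre cells. Without the cells that held at least 3 ependymal markers, which left 103 hGFAP-Cre and 221 control cells, Dynlrb2 was at 4.61 CPM against 0 UMIs, Cryab at a log2 ratio of 3.17, Mt2 at 2.69, Cdkn1a at 2.90 and Ccnd2 at −1.68. The Dynlrb2 UMIs thus lay almost entirely in the cells left out, while Cryab, Mt2, Cdkn1a and Ccnd2 kept their direction without them. Chchd10 did not stay high: it was at 5.53 against 2.61 CPM without them, a log2 ratio of 0.47, and at 26.2 against 20.6 CPM in cells with at least 6 of the 7 genes, a log2 ratio of 0.29.

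The lowest genes outside the lists were Cwc22, Olig1, Olig2, Mfge8 and Hnrnpa0. Cwc22, a splicing factor, was at 20.4 CPM (13.5 to 29.7) in hGFAP-Cre cells against 161 CPM (146 to 177) in control cells, 7.88-fold lower. Hnrnpa0, an RNA-binding protein, was at 266 against 983 CPM and Mfge8, a secreted bridge for the uptake of dying cells, at 56.7 against 222 CPM. In microglia Cwc22 was at 22.2 CPM in the hGFAP-Cre and 116 CPM in the control library and Hnrnpa0 at 117 and 305 CPM, so both genes were lower in cells of another lineage too.

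**Figure D4:**
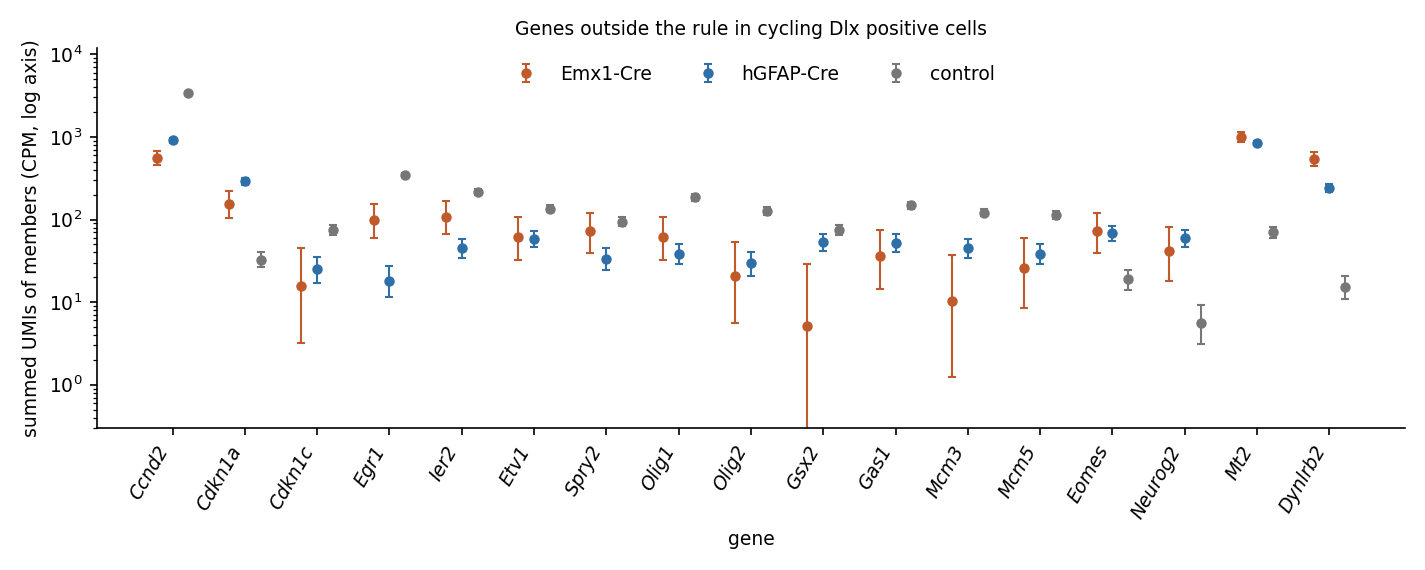
Summed level (CPM, log axis) of 17 genes outside the rule in the cycling Dlx positive cells of the Emx1-Cre, hGFAP-Cre and control libraries, with exact Poisson 95% intervals. Ccnd2, Egr1, Olig1 and Olig2 are lower in hGFAP-Cre than in control cells and Cdkn1a, Eomes, Neurog2, Mt2 and Dynlrb2 higher, with intervals apart, and the Emx1-Cre intervals are wide.

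Set beside Dlx positive cells without Mki67 and Top2a (548 hGFAP-Cre and 797 control cells) and cycling Eomes positive cells (627 and 188 cells), some differences were shared and some were not. The log2 ratios of hGFAP-Cre over control for Cdkn1a were 2.97 in cycling Dlx positive, 2.93 in non-cycling Dlx positive and 2.79 in cycling Eomes positive cells. For Ccnd2 they were −1.89, −1.78 and −1.31, for Egr1 −3.92, −2.07 and −4.43, for Cwc22 −2.71, −2.87 and −2.61 and for Hnrnpa0 −1.87, −1.79 and −1.86. Olig1 was at −2.13, −0.15 and −1.97 and Olig2 at −1.93, −0.50 and −2.62, so both cycling sets had lower ratios than the non-cycling set. Oligodendrocyte precursor markers summed to 86.8 CPM in non-cycling control cells, against 377 CPM in cycling Dlx positive control cells. In hGFAP-Cre cells these sums were 110 and 107 CPM. The non-cycling control cells thus held less of these markers from the start. Meis1 was at 1.32, 0.02 and 0.14 and Pbx3 at 1.26, −0.74 and −0.85. The S phase median was −0.45 in the cycling Dlx positive cells, −0.003 in the non-cycling ones and −0.08 in cycling Eomes positive cells. In the same order the ERK response median was −1.13, −0.61 and −1.04 and the migration median −0.69, −0.61 and −1.03. The pallial and radial glia factor median was −0.61, −0.51 and −0.83 and the immediate early median −0.60, −0.16 and −0.73. These list medians were thus negative in all 3 cell sets. The G2/M median was −0.31, 0.10 and −0.19. With 1 library per genotype the differences between cell sets were not tested.

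**Figure D5:**
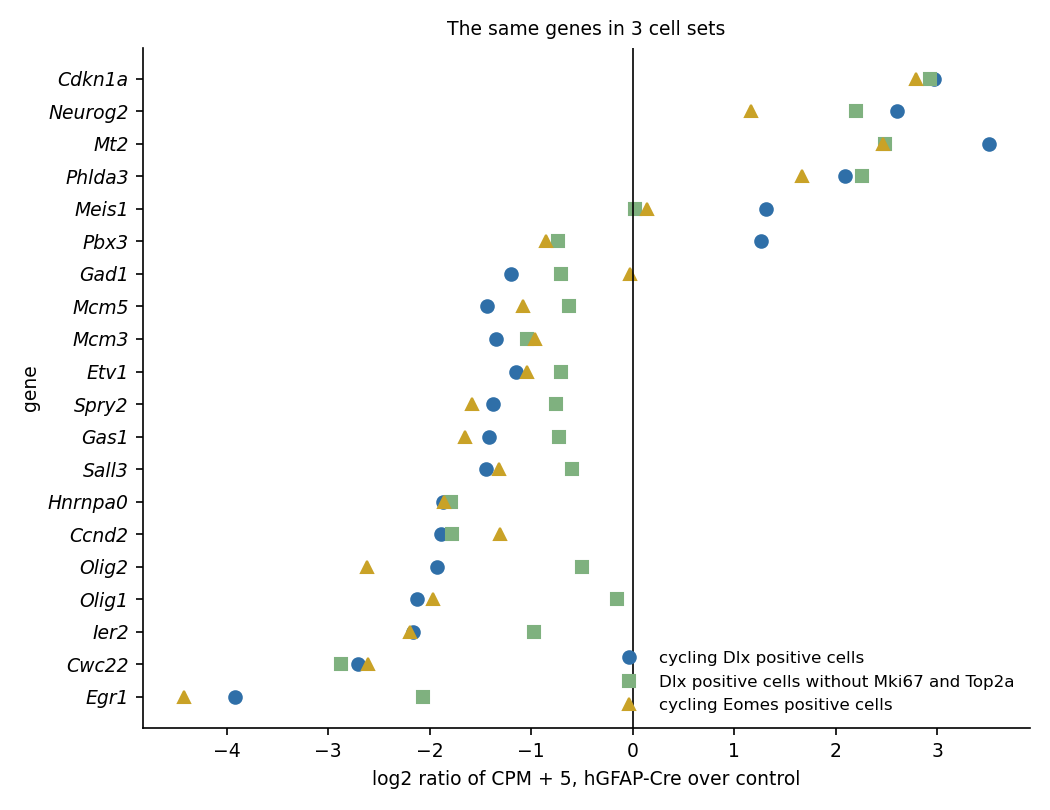
Log2 ratio of CPM + 5, hGFAP-Cre over control, for 20 genes in cycling Dlx positive cells (circles), Dlx positive cells without Mki67 and Top2a (squares) and cycling Eomes positive cells (triangles). Cdkn1a, Cwc22 and Hnrnpa0 lie close together in the 3 cell sets, while Meis1 and Pbx3 lie above 1 in the cycling Dlx positive cells, against values between −0.85 and 0.14 in the other cell sets.

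The cells with the most interneuron genes were also described apart. Among cells with at least 6 of the 7 genes, 53 in the hGFAP-Cre and 144 in the control library, the log2 ratio was −1.48 for Ccnd2, −3.70 for Egr1, −1.97 for Ier2, −0.82 for Etv1, −1.21 for Spry2, −1.13 for Gas1, −1.33 for Mcm3, −1.17 for Mcm5, 2.16 for Cdkn1a, 1.88 for Eomes and 2.41 for Mt2. Dlx1 and Dlx2 were at −0.69 and −0.58 in the same cells. Other genes that were higher among all 119 cells were not, or far less so, among these 53: Chchd10 was at 0.29, Calb2 at 0.25, Ifi27 at 0.22, Ifitm3 at 0.66, Hes1 at −0.59, Bst2 at −0.30 and Meig1 at −0.53. The 87 Meig1 UMIs of the control came from 0.694% of its 144 cells, and Bst2 had 0 UMIs in hGFAP-Cre against 2 in control cells. Ccnd1, lower among all 119 cells, was at −0.04. In these cells 187 genes were at least 2-fold higher in hGFAP-Cre than control cells. The number of genes that reached 20 CPM in them is not given here, so this count is not compared with the 402 of the whole set.

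Within the hGFAP-Cre library, the 59 cells with a Prm1 UMI (median 11580 UMIs) and the 60 without (9322.5 UMIs) were alike in some genes. Cdkn1a was at 280 CPM in cells with Prm1 and 305 CPM in cells without, and Egr1 at 15.3 and 21.6 CPM. Ccnd2 was at 698 CPM in cells with and 1155 CPM in cells without, both under the control's 3368 CPM, and Etv1 at 38.8 and 81.6 CPM. Olig2 was at 52.7 CPM in cells with Prm1 and 1.66 CPM in cells without, and Slc1a3, a glial glutamate transporter, at 233 and 61.6 CPM. Olig2 was found in 15.3% of cells with Prm1 and 1.67% of cells without. The 3 highest cells held 64.1% of its UMIs in the hGFAP-Cre set. A cell without a Prm1 UMI need not lack the transcript, and Prm1 reached microglia as well, so this split sorts cells by a detected UMI and not by genotype.

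The 17 Emx1-Cre cells give values for few genes at wide intervals. Of 7346 genes at 20 CPM or more in Emx1-Cre or control cells, 1147 (15.6%) were at least 2-fold higher and 877 (11.9%) at least 2-fold lower, but with counting intervals apart the numbers were 784 (10.7%) and 429 (5.84%). From 1.5-fold on, 26.5% were higher and 24.1% lower, and the median log2 ratio was 0.03. S phase genes were the lowest list, with 29 of 30 genes lower, 0 higher and a median of −1.97. Mcm3 had 2 UMIs (10.3 CPM, 1.25 to 37.3) against 122 CPM in control cells, and Uhrf1, which maintains DNA methylation at replication, 3 UMIs against 105 CPM. Ccne1, cyclin E1, had 0 UMIs, which allows up to 15.5 CPM, against 31.7 CPM, at least 2.05-fold lower. Of 45 G2/M genes 21 were lower and 1 higher.

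Single genes of other lists were low in the Emx1-Cre cells. Of 12 NOTCH genes at 20 CPM or more, 5 were lower and 2 higher than in control cells, with a median of −0.30. The NOTCH ligand Dll3 was at 0 UMIs against 41.6 CPM in control cells, at least 2.69-fold lower, and Dll1 and the glycosyltransferase Mfng each had 1 UMI, against 37.2 and 39.4 CPM. Cdca7, a MYC-responsive cell cycle gene, was at 51.6 CPM (24.8 to 94.9) against 454 CPM (429 to 480), and Pou3f4, a POU factor of ventral progenitors, had 2 UMIs against 108 CPM. Gad1 had 1 UMI against 48.3 CPM. Cdkn1a was at 155 CPM (104 to 221) and Phlda3 at 61.9 CPM (32.0 to 108), both above the control's 32.8 and 6.63 CPM, but without cells holding at least 3 ependymal markers the Cdkn1a log2 ratio was −0.35.

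Genes of migration were uneven in the 17 cells, with 4 of 20 higher and 4 lower. Sema3c, a guidance ligand, and Cxcr4, a chemokine receptor, had 26 and 11 UMIs, at 134 CPM (87.7 to 197) and 56.8 CPM (28.3 to 102) against 23.2 and 8.47 CPM in control cells. Of the lowest genes outside the lists, Hist1h2ap, a replication histone, was at 124 CPM (79.4 to 184) against 1489.7 CPM, Lima1, an actin-binding protein, had 4 UMIs against 183 CPM and Rgs16, a G protein regulator, 2 UMIs against 106 CPM. Trp53, which encodes p53, was at 51.6 CPM (24.8 to 94.9) against 151 CPM (137 to 167).

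ERK response genes showed no clear direction as a list in these cells. Of 20, 11 reached 20 CPM, 4 were higher and 2 lower, with a median of 0.12. The medians of the members' lower and upper counting bounds were −1.02 and 1.34. Over the 19 with any UMI the median was −0.05, with 6 higher and 6 lower. In the same comparison the list median was −0.29 in non-cycling Dlx positive and −1.15 in cycling Eomes positive cells. Spry1, Il17rd and Ier3, feedback or response genes of the pathway, had 10, 5 and 13 UMIs in Emx1-Cre cells, at 51.6, 25.8 and 67.1 CPM against 7.37, 2.95 and 18.8 CPM in control cells. Without doublet calls Il17rd was at a log2 ratio of −0.53. Egr1 was at 98.1 CPM (59.0 to 153) against 345 CPM. The highest genes outside the lists were Anxa1, with 32 UMIs against 0 in control cells and so at least 149-fold higher, Dynlrb2, Lrrc23, Meig1 and Id3. Dynlrb2, Lrrc23 and Meig1 are genes of motile cilia, and the summed ependymal markers given above moved with them.

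hGFAP-Cre cells were also set against Emx1-Cre cells. Of 7178 genes at 20 CPM or more in either, 532 (7.41%) were at least 2-fold higher and 663 (9.24%) at least 2-fold lower in hGFAP-Cre than in Emx1-Cre cells, and with intervals apart 156 (2.17%) and 285 (3.97%). From 1.5-fold on, 16.2% were higher and 20.4% lower. Of 30 S phase genes, 26 were higher and 0 lower in hGFAP-Cre cells, with a median of 1.38. Of 13 NOTCH genes, 5 were higher and 1 lower, and of 11 ERK response genes 0 were higher and 9 lower, with a median of −1.01. For the ERK response list the medians of the members' counting bounds were −2.15 and 0.36. Ccnd2 was at 906 CPM in hGFAP-Cre cells and 552 CPM in Emx1-Cre cells, and Egr1 at 18.2 and 98.1 CPM, each with intervals apart. These intervals do not cover the spread between cells. The 3 highest cells held 9.77% of the Ccnd2 UMIs in the hGFAP-Cre and 65.4% in the Emx1-Cre library. For Egr1 the 3 highest cells held 70.8% and 57.9%.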

How the data were processed

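Single cells of 3 libraries, 1 per genotype, were measured with the Chromium droplet platform. The matrices as deposited hold whole UMI counts, without normalization, which the authors made with Cell Ranger 5.0.0, per the file headers, on build mm10, per the submitters' processing notes; the counting of strand and introns is not given in the sources used here. No column was without a sample.

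From these counts, barcodes with at least 1000 genes and under 10% mitochondrial UMIs were kept, and the cycling Dlx positive cells chosen as described in the report. The members and the gene lists were chosen with earlier results of these data known. UMIs were summed per library and scaled to CPM, and libraries compared as log2 ratios of CPM + 5 over genes at 20 CPM or more in either. Intervals are 95% exact Poisson (levels), exact binomial (shares, Clopper-Pearson) and conditional binomial (ratios). A gene at 0 UMIs was given a limit of 3 counts per library. Doublets were called with Scrublet (scanpy 1.11.5) at an expected rate of 0.1 and were kept in the values above; the comparison of sums was tested on simulated data and the doublet calls were not. Microglia, with at least 3 of their markers, gave the level of free RNA. Cells were thinned to 3000 UMIs to compare shares at equal depth. No p-value was computed.

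Genes named are Map2k1 and Map2k2, the 10 genes of the rule, up to 3 genes of each list and the 5 highest and 5 lowest genes outside the lists at 100 CPM or more with counting intervals apart, and Prm1 and Emx1; genes picked after their values were seen are said to be so, or stand as markers of a named cell type, or as members of a shown combination. Slc1a3 is such a marker. Some genes that the rule names are not reported here. Python 3.11.15, numpy 2.4.6, scipy 1.17.1, pandas 2.3.3 and matplotlib 3.10.9 were used. Alternatives changed the cell filters, the rule, doublets, scaling, the pseudocount and the filter on low genes.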

Additional observations from a re-analysis of the deposited data

Results flagged for a closer look

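Nrp1, a semaphorin and VEGF receptor, differed from the control in opposite directions in the Cre libraries. Its log2 ratio was 1.53 in Emx1-Cre over control cells and −1.19 in hGFAP-Cre over control cells, from 19 UMIs in Emx1-Cre, 14 in hGFAP-Cre and 83 in control cells. With 1 library each, the difference between both ratios was not tested, and both share the control.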

How the results depend on the processing

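No paired analysis was possible because each genotype has 1 library. All values are log2 ratios unless called gene counts, and the cause of each change was not tested. Gene counts stand without the number of genes measured in each setting, so they are not shares and are not compared as such. Removing doublets gave Il17rd −0.53 (Emx1-Cre over control) and 835 genes higher in hGFAP-Cre than Emx1-Cre. At least 2000 genes per cell gave a share among kept cells of −0.95 (hGFAP-Cre over control) and a cycling share of −0.16 (hGFAP-Cre over Emx1-Cre). At least 4 of 7 genes gave Bst2 −0.42 (hGFAP-Cre over Emx1-Cre). Requiring Mki67 and Top2a gave shares among kept cells of −5.43 (Emx1-Cre over control), −1.75 (hGFAP-Cre over control) and 3.69 (hGFAP-Cre over Emx1-Cre), cycling shares of −1.72, −0.74 and 0.98 in the same order, 168 genes higher in hGFAP-Cre than control cells, an interferon median of −0.11 and Bst2 −0.13.

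Choosing cells after thinning to 3000 UMIs gave shares of −6.45, −2.001 and 4.45 and cycling shares of −2.16, −0.74 and 1.42. For hGFAP-Cre over control it gave 929 genes lower, an olfactory bulb subtype median of −2.53 and Pcp4 −1.95. It also gave Neurog2, Bst2 and Ifi27 −0.56 each, Ccnd1 0.19 and Meis1 −0.20. With 50 hGFAP-Cre and 140 control cells left, these single genes had few UMIs. Leaving out cells with Eomes, Neurod6, Aqp4 or Pdgfra gave shares of −4.98 (Emx1-Cre over control) and 3.89 (hGFAP-Cre over Emx1-Cre), cycling shares of 0.21 (hGFAP-Cre over control) and 1.04 (hGFAP-Cre over Emx1-Cre), 690 genes higher and 390 lower in hGFAP-Cre than control cells, a subtype median of −1.41 and Pcp4 −0.63.

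3 alternatives were chosen after seeing the data. At least 6 of 7 genes gave shares of −7.58, −1.84 and 5.73 and, for hGFAP-Cre over control, 187 genes higher, medians of −0.089 for subtype and −0.87 for interferon genes, Bst2 −0.30 and Meig1 −0.53. Without cells holding 3 ependymal markers, Cdkn1a was at −0.35 (Emx1-Cre over control), 142 genes were higher in hGFAP-Cre than control cells and 814 than Emx1-Cre cells, and Bst2 was at −0.0067 and Lrrc23 at 0.24 (hGFAP-Cre over Emx1-Cre). Without cells holding 3 ependymal or excitatory markers, shares were −5.54, −1.66 and 3.87, 167 genes were higher in hGFAP-Cre than control cells, and the subtype median was −1.14 and Pcp4 −0.48.

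A pseudocount of 20 CPM gave 562 higher and 455 lower genes for Emx1-Cre over control, 210 and 64 for hGFAP-Cre over control and 213 and 239 for hGFAP-Cre over Emx1-Cre. Taking every gene with a count gave 1933 and 1580 genes and a subtype median of −0.20 for Emx1-Cre over control, 709 higher genes for hGFAP-Cre over control with 3 list medians past 1.5-fold in place of 6, and 1267 and 1249 genes for hGFAP-Cre over Emx1-Cre. Over the alternatives, hGFAP-Cre over control ranged from −1.90 to −1.32 for Ccnd2, −4.45 to −3.26 for Egr1, 1.45 to 3.11 for Cdkn1a, −2.38 to −1.16 for Olig1 and −2.25 to −0.61 for Olig2. Settings that left under 10 Emx1-Cre cells gave no expression values for that library.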
